A study of Homo sapiens with 6 samples.

Results

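The genes of 3 steroid receptors, PGR, ESR1 and NR3C1, were described from the reads that CDK2 and PARP1 antibodies recovered along them. They were taken as all 10 kb windows whose start lay in a fixed interval of hg19 for each gene, both ends included. This gave 81 of 303641 windows, namely 13 for PGR (chromosome 11, 100890001 to 101020000), 48 for ESR1 (chromosome 6, 151970001 to 152450000) and 20 for NR3C1 (chromosome 5, 142640001 to 142840000). Where each gene starts and ends within its windows was not determined here, because the annotation at hand was of another build. For each gene the 100 windows within 500 kb on both sides, without the gene's own, served as flank. All gene and flank windows had a mean of at least 10 reads over the 6 libraries.

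PGR encodes the progesterone receptor, the receptor that the progestin of this study binds. ESR1 encodes the oestrogen receptor alpha, which drives growth of luminal breast cancer cells and induces PGR, and NR3C1 encodes the glucocorticoid receptor, whose DNA-binding domain recognises the same response elements as that of the progesterone receptor. These receptors are transcription factors that bind DNA after they have bound hormone, and T47D cells are known for their high level of progesterone receptor. CDK2 is a cyclin-dependent kinase, and PARP1 attaches ADP-ribose chains to proteins on chromatin.

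The cells were T47D-MTVL, a T47D breast cancer line that carries an integrated reporter with a mouse mammary tumour virus promoter. All 6 libraries came from cells kept in charcoal-stripped serum and then without serum, and the chromatin was fixed with formaldehyde. CDK2 and PARP1 were each precipitated from cells that received no hormone (0 min) and from cells after 5 and 30 min of 10 nM R5020, a synthetic progestin. By its title the study was about PARP1 being activated in a CDK2-dependent way during hormonal gene regulation. There was 1 library for each antibody and time, so no comparison has a replicate check, no p-value is given, and all intervals below are 95% intervals that cover counting error only.

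The 6 libraries held 40097131 to 63448449 reads. The CDK2 library of 5 min was less even along the genome than the others, with 3986 windows at 0 reads among the 278395 windows that had a mean of at least 10 reads, against 588 in the other CDK2 library with hormone, 14 in the one without, and 4 to 14 in PARP1. Because of this unevenness each gene was set beside all consecutive stretches of the genome with as many windows as the gene, each with its own 500 kb flanks. The range that holds the middle 90% of these stretches is called the stretch range.

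RefSeq (GRCh38.p14) lists 3 promoters for PGR, 6 for ESR1 and 7 for NR3C1. The 250 bases before the most upstream start of each gene are shown so that the letters later named can be seen, with motif matches in capitals. Their positions belong to GRCh38.p14 and cannot be set against the hg19 windows. On the transcribed strand, PGR is from chr11:101129814-101130063 (minus strand), ESR1 from chr6:151656422-151656671 (plus strand) and NR3C1 from chr5:143435513-143435762 (minus strand).
PGR: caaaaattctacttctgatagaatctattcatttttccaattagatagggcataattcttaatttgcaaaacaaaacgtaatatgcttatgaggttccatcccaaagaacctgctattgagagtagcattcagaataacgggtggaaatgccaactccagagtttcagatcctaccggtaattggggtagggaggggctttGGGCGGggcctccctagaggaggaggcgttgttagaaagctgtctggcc
ESR1: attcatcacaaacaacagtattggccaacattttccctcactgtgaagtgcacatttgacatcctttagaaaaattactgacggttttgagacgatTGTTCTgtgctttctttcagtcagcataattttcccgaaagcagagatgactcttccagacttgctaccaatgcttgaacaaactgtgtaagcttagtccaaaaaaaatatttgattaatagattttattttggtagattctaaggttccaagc
NR3C1: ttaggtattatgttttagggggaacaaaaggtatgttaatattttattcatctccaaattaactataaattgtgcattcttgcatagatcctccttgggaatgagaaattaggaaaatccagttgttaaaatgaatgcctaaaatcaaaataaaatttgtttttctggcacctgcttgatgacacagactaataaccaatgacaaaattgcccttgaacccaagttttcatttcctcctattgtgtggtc
In PGR the capitals mark GGGCGG, the core letters of a GC box, and in ESR1 they mark TGTTCT, the core letters that progesterone and glucocorticoid receptors recognise in 1 arm of their response element. The NR3C1 stretch held none of the letters searched. Over the 300-base promoters of the table, which run from 250 bases before to 50 after a start, TGTTCT was found on either strand in 1 of the 16 promoters of the 3 genes and in 14.8% of all 35116 promoters. GGGCGG was found in 10 of the 16 and in 45.0% of all. GGTCA, 1 arm of the oestrogen response element, was found in 4 of the 16 and in 37.4% of all. Full palindromes, made of an arm, a gap of 3 bases and the arm's reverse complement, were in 0 of the 16. They were in 0.390% of all promoters with the arm GNACA and in 0.0570% with the arm GGTCA. Every match of the GGTCA palindrome is also a match of GGTCA.

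The 3 genes kept 1 order of read level through antibodies and times. NR3C1 was the most densely read gene, PGR the next and ESR1 the least dense in all 6 libraries, and no counting intervals of different genes overlapped within a library. In RPM (reads per 1000000 reads of the library) per 10 kb window, NR3C1 had 6.17, 6.53 and 5.31 in CDK2 at 0, 5 and 30 min and 5.97, 5.72 and 5.96 in PARP1. PGR had 4.53, 5.50 and 4.25 in CDK2 and 4.96, 4.06 and 4.67 in PARP1. ESR1 had 2.97, 2.64 and 2.74 in CDK2 and 2.92, 3.07 and 3.12 in PARP1. Set against the median compared window of each library, NR3C1 lay at 1.64 to 2.04 times that level, PGR at 1.24 to 1.72 times and ESR1 at 0.825 to 0.953 times.

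The flanks showed the same order as the genes. Flank levels were 5.31 to 6.33 RPM per window around NR3C1, 3.87 to 4.42 around PGR and 2.78 to 2.87 around ESR1. The ratio of the gene's mean window to its flank's mean window, called gene over flank, was therefore near 1 in most libraries. It was 1.07, 1.24 and 1.10 for PGR in CDK2 at 0, 5 and 30 min and 1.2, 0.985 and 1.12 in PARP1. It was 1.04, 0.920 and 0.971 for ESR1 in CDK2 and 1.05, 1.08 and 1.11 in PARP1. For NR3C1 it was 1.04, 1.23 and 0.839 in CDK2 and 1.01, 0.923 and 0.962 in PARP1. Other flanks, trimmed ends or medians moved the 18 ratios by at most 0.11. All 18 lay inside the stretch range of their library, so the genes stood out from their surroundings no more than the middle 90% of stretches of their length. Copy number in this cell line and the share of each region that reads can map to were not tested as contributors to the levels.

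**Figure D1:**
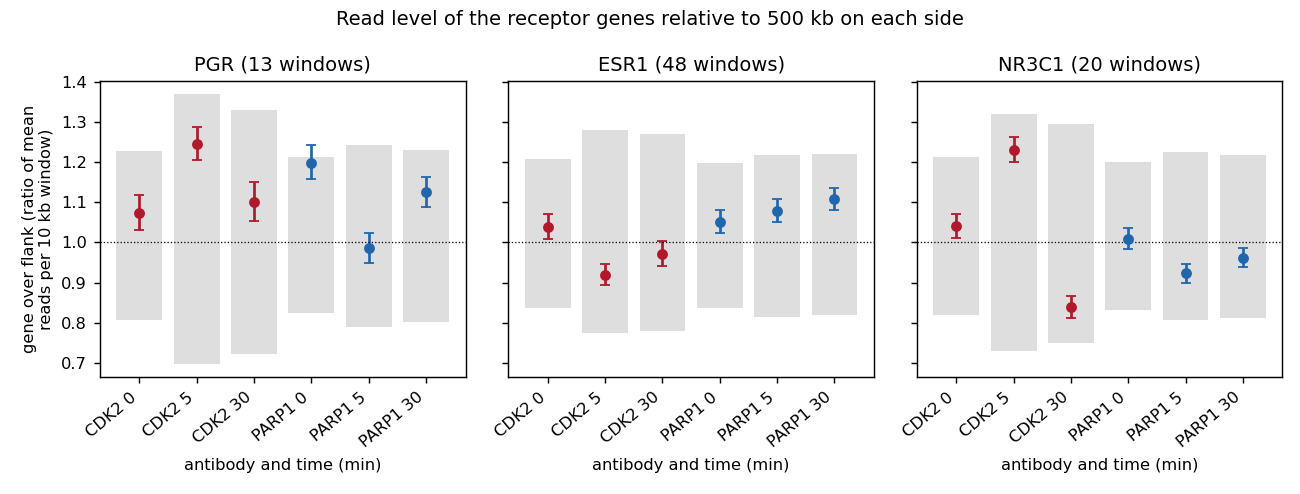
Ratio of mean reads per 10 kb window in each gene to that in its flank (vertical axis) for the 6 libraries, CDK2 in red and PARP1 in blue, each from 0 to 30 min. Bars are 95% counting intervals and grey boxes are the range of the middle 90% of stretches of the same length; all 18 points lie inside their boxes.

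PGR was the gene whose PARP1 reads, relative to the flank, differed most from 0 min. At 5 min, PARP1 reads in PGR were lower than at 0 min while its flank was level, and relative to the flank the 30 min value lay between both. The gene held 3593, 3086 and 3851 PARP1 reads at 0, 5 and 30 min, and as RPM per window these were 4.96 (4.79 to 5.12), 4.06 (3.92 to 4.20) and 4.67 (4.52 to 4.82). After scaling to library totals, the ratio of 5 to 0 min was 0.819 (0.780 to 0.860) in the gene and 0.996 (0.979 to 1.01) in its flank. The change of gene over flank was 0.822 (0.781 to 0.865), below the stretch range of 0.854 to 1.16.

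A change of at least 1.2 or at most 0.833 was the limit used for genes. PARP1 at 5 min in PGR was past it, as were 5.56% of 21425 stretches of PGR length. The limit was no longer passed with a flank of 1000 kb (0.855), with 1 window less at each end of the gene (0.852), with the downstream side of the flank alone (0.837), or, when each window was left out in turn, at the highest value (0.861). The window 100980001 to 100990000 held 404, 215 and 239 PARP1 reads at 0, 5 and 30 min, and was the highest window of PGR at 0 min. At 30 min the change of gene over flank was 0.938 (0.894 to 0.985) against 0 min, inside the stretch range of 0.879 to 1.13, with 2.35% of stretches past the limit. Between 30 and 5 min it was 1.14 (1.09 to 1.2), with a stretch range of 0.878 to 1.14 and 2.80% of stretches past the limit.

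CDK2 reads in PGR were higher at 5 min than at 0 min and close to those of 0 min at 30 min, in RPM per window. They numbered 2658, 4132 and 2217 at 0, 5 and 30 min. Relative to the flank, the change was 1.16 (1.10 to 1.22) at 5 against 0 min, inside the stretch range of 0.751 to 1.29, which had 25.1% of stretches past the limit. At 30 against 0 min it was 1.03 (0.965 to 1.09), inside 0.766 to 1.28, with 22.9% of stretches past the limit, and with medians of window counts it was 0.961. At 30 against 5 min it was 0.884 (0.836 to 0.934), inside 0.707 to 1.43, with 38.3% past it. CDK2 libraries thus differed by this much in many stretches of this length, and the PGR values were not past the limit in any of the 3 comparisons. Alternatives put 2 of them past it, namely 5 against 0 min with a flank of 1000 kb (1.2) or with the window left out that gives the highest value (1.23), and 30 against 5 min with the window left out that gives the lowest (0.826).

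Single windows of PGR were higher or lower in CDK2 after hormone. The window of highest mean level over the 6 libraries was 100900001 to 100910000, with 244, 529 and 236 CDK2 reads at 0, 5 and 30 min and 278, 250 and 372 PARP1 reads. In 100940001 to 100950000, CDK2 had 46, 256 and 113 reads, while PARP1 had 174, 127 and 210. The low CDK2 count there was that of 0 min, and its ratio was 4.34 (3.16 to 6.08) at 5 min and 2.76 (1.95 to 3.98) at 30 min. The neighbouring window 100930001 to 100940000 had 227, 127 and 203 CDK2 reads, a ratio of 0.437 (0.349 to 0.545) at 5 min.

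ESR1, the longest of the genes, showed small changes as a whole. PARP1 reads numbered 7818, 8615 and 9511 at 0, 5 and 30 min. The change of gene over flank was 1.03 (0.989 to 1.07) at 5 against 0 min, with a stretch range of 0.893 to 1.11 and 0.975% of 5846 stretches of ESR1 length past the limit. At 30 against 0 min it was 1.05 (1.01 to 1.09), inside 0.915 to 1.09, with 0.325% past it. At 30 against 5 min it was 1.03 (0.990 to 1.06), inside 0.922 to 1.08, with 0.188% past it. PARP1 over ESR1 thus stayed inside the stretch range in all 3 comparisons, with depth-scaled ratios of single windows from 0.718 to 1.82 at 5 min and from 0.625 to 1.87 at 30 min against 0 min.

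CDK2 reads in ESR1 were lower relative to the flank after hormone, by less than the limit. They numbered 6431, 7327 and 5279 at 0, 5 and 30 min. Relative to the flank, the change was 0.885 (0.849 to 0.921) at 5 against 0 min, inside the stretch range of 0.850 to 1.17, with 6.18% of stretches past the limit. At 30 against 0 min it was 0.935 (0.894 to 0.977), inside 0.841 to 1.18, with 8.36% past it, and at 30 against 5 min 1.06 (1.01 to 1.10), inside 0.795 to 1.26, with 18.5% past it. With medians of window counts in place of sums, the values of 5 against 0 min and 30 against 5 min lay on the other side of 1, at 1.05 and 0.86.

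Within ESR1 the CDK2 reads after hormone were uneven from window to window. The coefficient of variation between its 48 windows was 22.6%, 55.8% and 55.3% in CDK2 at 0, 5 and 30 min and 20.6%, 25.1% and 24.4% in PARP1. The median stretch of this length had 24.0%, 51.8% and 43.1% in CDK2, so much of this unevenness was present in the CDK2 libraries outside ESR1. Counting error would give 7.10% to 9.54%.

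The named windows of ESR1 show this unevenness. The window of highest level was 152010001 to 152020000, with 171, 336 and 154 CDK2 reads and 228, 208 and 270 PARP1 reads at 0, 5 and 30 min. At 152400001 to 152410000 CDK2 had 147, 0 and 59 reads. With 3 reads put in as the floor for a library at 0, it was 62.8-fold lower at 5 min. The exact interval of the ratio reached up to 0.0198, which allows a smaller fold. PARP1 had 117, 157 and 131 reads there, and the cause of the empty CDK2 window was not tested. The window 152350001 to 152360000 had 40, 0 and 11 CDK2 reads, 17.1-fold lower at 5 min by the same floor with an interval up to 0.0754. It was thinly covered in PARP1 too, with 73, 68 and 90 reads.

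At 30 min other windows stood out. In 152190001 to 152200000 CDK2 had 104, 240 and 325 reads, a ratio of 3.52 (2.81 to 4.43) at 30 against 0 min, while PARP1 had 223, 191 and 187. In 152210001 to 152220000, only 20 kb away, CDK2 had 115, 237 and 10 reads, a ratio of 0.0978 (0.0457 to 0.187), and PARP1 had 134, 179 and 179. In 152320001 to 152330000 CDK2 had 187, 136 and 33 reads (0.199, 0.133 to 0.289), and PARP1 had 171, 174 and 198. None of these differences appeared in PARP1 at 2-fold.

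Relative to the flank, NR3C1 had the largest of the 3 differences between the CDK2 libraries of 5 and 30 min, while in depth-scaled reads PGR differed more, with 0.773 against 0.813 in NR3C1. CDK2 reads relative to the flank were higher at 5 min and lower at 30 min than at 0 min. The gene held 5564, 7549 and 4260 CDK2 reads at 0, 5 and 30 min. After scaling to totals, 5 against 0 min was 1.06 (1.02 to 1.10) in the gene and 0.896 (0.881 to 0.911) in its flank. For 30 against 0 min these were 0.861 (0.827 to 0.897) and 1.07 (1.05 to 1.09). The change of gene over flank was 1.18 (1.14 to 1.23) at 5 against 0 min, inside the stretch range of 0.789 to 1.24, with 17.2% of 13960 stretches of NR3C1 length past the limit, and with medians of window counts it was 1.27 and past the limit. At 30 against 0 min it was 0.806 (0.771 to 0.841), past the limit as were 16.5% of stretches, and just inside the stretch range of 0.8 to 1.24. With medians it was 0.897 and not past the limit. Against the upstream side of the flank alone it was 0.927, also not past the limit, and against the downstream side alone 0.706.

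At 30 against 5 min the change in NR3C1 was 0.681 (0.654 to 0.710), below the stretch range of 0.743 to 1.35. The limit was passed by 30.0% of stretches in this comparison. Gene and flank lay on opposite sides of 1. After scaling to totals, 30 against 5 min was 0.813 (0.783 to 0.845) in the gene and 1.19 (1.17 to 1.21) in the flank. The flank difference lay mostly on the downstream side, which had 5.70, 5.09 and 6.95 RPM per window in CDK2 at 0, 5 and 30 min, while the upstream side had 6.15, 5.52 and 5.71. The change in NR3C1 at 30 against 5 min was 0.786 against the upstream side alone and 0.595 against the downstream side alone, both past the limit. The CDK2 library of 5 min, the one with the most empty windows, enters this comparison, and its part in the result was not tested.

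PARP1 in NR3C1 stayed within the stretch range at all times. Reads numbered 6664, 6688 and 7557 at 0, 5 and 30 min. The change of gene over flank was 0.915 (0.881 to 0.949) at 5 against 0 min (stretch range 0.871 to 1.14, 3.07% of stretches past the limit). It was 0.954 (0.920 to 0.989) at 30 against 0 min (0.893 to 1.12, 1.30%) and 1.04 (1.01 to 1.08) at 30 against 5 min (0.897 to 1.12, 1.16%). NR3C1 also had the most even PARP1 profile of the genes, with coefficients of variation of 12.7%, 18.5% and 15.5% at 0, 5 and 30 min, against 19.8%, 25.2% and 21.6% in the median stretch of its length. Its flank was likewise the most even of the flanks in PARP1, with 15.5%, 19.3% and 17.5%. NR3C1 was also the most densely read gene, and the part of depth in its evenness was not tested.

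The window of highest level in NR3C1 was 142690001 to 142700000, with 331, 590 and 339 CDK2 reads and 369, 365 and 424 PARP1 reads at 0, 5 and 30 min. The lowest CDK2 ratio at 5 against 0 min was in the window that starts at 142820001, with 244, 101 and 240 reads (0.323, 0.254 to 0.409). PARP1 had 326, 345 and 374 reads there. Next came 142740001 to 142750000, with 251, 126 and 202 CDK2 reads (0.392, 0.314 to 0.487). At 30 against 0 min the lowest was 142640001 to 142650000, with 284, 507 and 101 CDK2 reads (0.400, 0.316 to 0.504), followed by 142730001 to 142740000, with 291, 464 and 111 reads (0.429, 0.342 to 0.536). In each of these windows only 1 of the 2 hormone libraries was low.

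**Figure D2:**
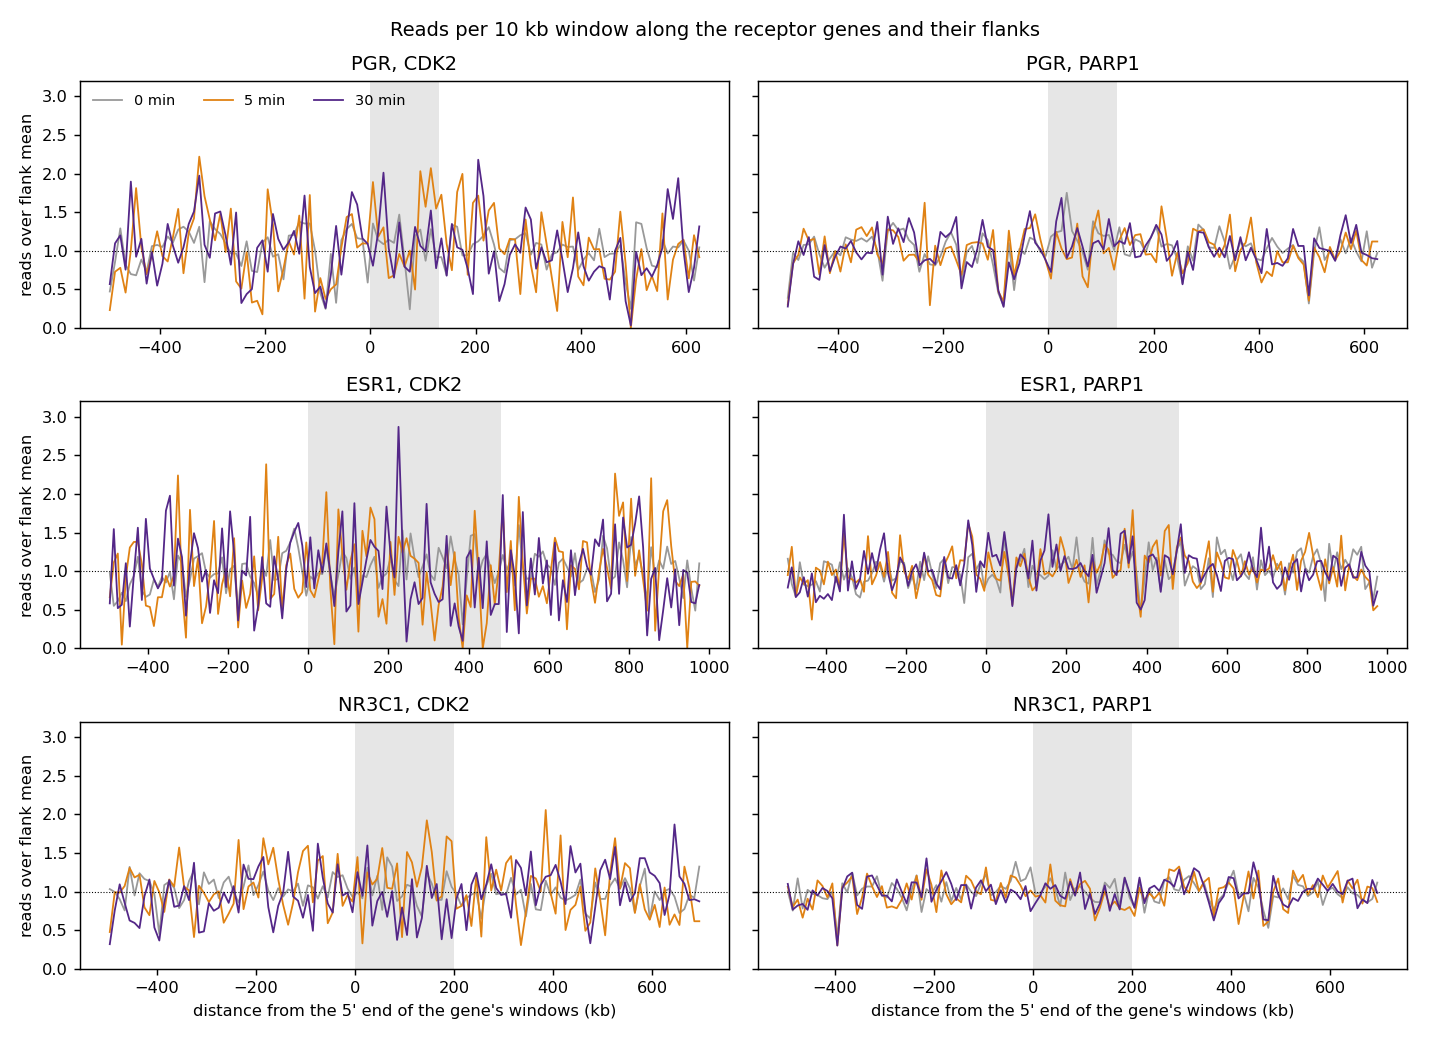
Reads per 10 kb window divided by the flank mean of the library (vertical axis) along each gene and its flanks, in kb from the 5′ end of the gene's windows in the direction of transcription (horizontal axis), with the gene shaded. CDK2 (left) at 5 and 30 min swings more between windows than PARP1 (right), in the genes and in the flanks; in ESR1 the coefficient of variation is 55.8% and 55.3% in CDK2 and 25.1% and 24.4% in PARP1.

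The antibodies were also compared within each time, as CDK2 over PARP1. Since they may differ in how much DNA they recover, the comparison was made through the change of gene over flank. Without hormone no gene was past the limit. CDK2 against PARP1 at 0 min was 0.895 (0.848 to 0.945) in PGR, with a stretch range of 0.887 to 1.13 and 1.64% of stretches past the limit. It was 0.989 (0.95 to 1.03) in ESR1, inside 0.931 to 1.08, with 0.205% past it, and 1.03 (0.992 to 1.07) in NR3C1, inside 0.903 to 1.11, with 0.681% past it.

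At 5 min, CDK2 was higher than PARP1 in PGR and NR3C1, relative to their flanks, and lower in ESR1. The value was 1.26 (1.2 to 1.33) in PGR, past the limit as were 29.3% of stretches and inside the stretch range of 0.736 to 1.33. It fell short of the limit with 1 window less at each end (1.12) and, with each window left out in turn, reached down to 1.17. In NR3C1 it was 1.33 (1.29 to 1.38), past the limit as were 22.2% of stretches and above the stretch range of 0.773 to 1.27. In ESR1 it was 0.852 (0.821 to 0.885), inside 0.829 to 1.21, with 11.2% of stretches past the limit. The ESR1 value was past the limit with a flank of 1000 kb (0.816) or with the downstream side alone (0.798).

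At 30 min the value was 0.978 (0.925 to 1.03) in PGR, inside 0.790 to 1.24, with 17.5% of stretches past the limit. It was 0.878 (0.842 to 0.914) in ESR1, inside 0.869 to 1.15, with 3.78% past it, and 0.872 (0.837 to 0.908) in NR3C1, inside 0.821 to 1.2, with 11.1% past it. No gene was past the limit at 30 min, except that ESR1 was with medians of window counts (0.792) and NR3C1 with the downstream side of the flank alone (0.803). Over all 9 comparisons and 3 genes, 5 of 27 changes were past the limit and 24 of 27 lay inside the stretch range. The comparisons share libraries, so these counts are not independent of each other. By definition the stretch range holds 90% of stretches, and 24 of 27 is near that share. The shares of stretches past the limit ran from 0.188% to 38.3% over comparisons and gene lengths.

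**Figure D3:**
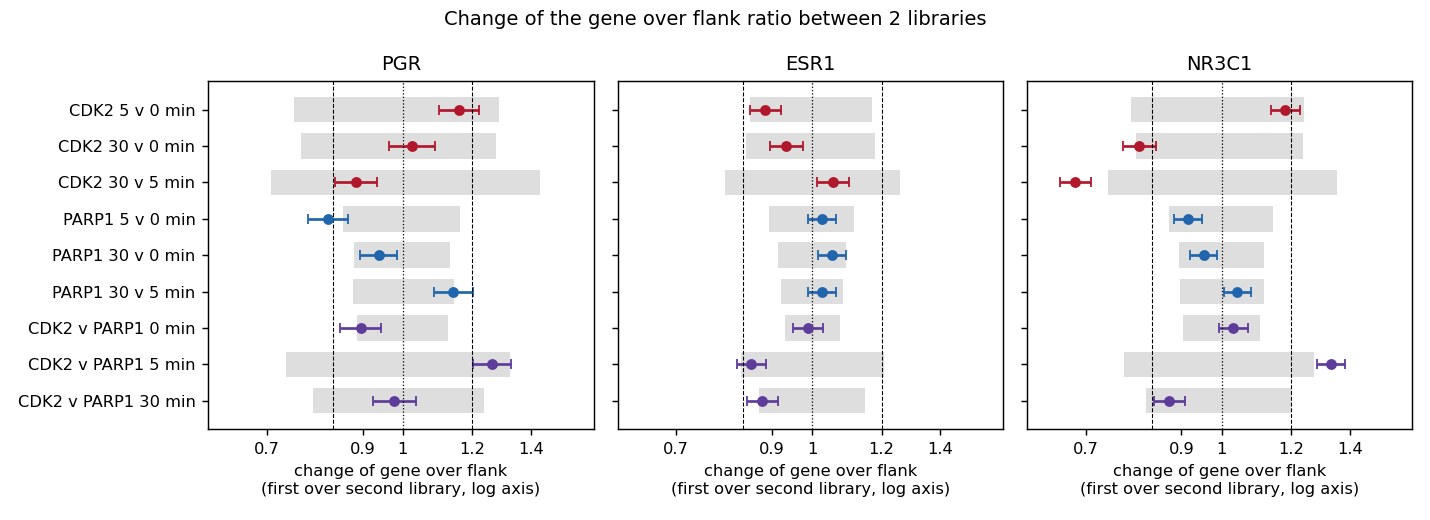
Change of the gene over flank ratio between 2 libraries (horizontal axis, log scale, first library over second) for 9 comparisons, with 95% counting intervals, the limits of 1.2 and 0.833 dashed and the range of the middle 90% of same-length stretches in grey. PARP1 at 5 against 0 min in PGR (0.822), CDK2 at 30 against 5 min in NR3C1 (0.681) and CDK2 against PARP1 at 5 min in NR3C1 (1.33) lie outside the grey boxes. The other 24 of 27 lie inside, near the 90% that the boxes hold by definition.

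Windows were then counted that differed by at least 2-fold after scaling to totals. In PARP1, 0 of the 81 windows did so in either direction at 5 or 30 min against 0 min. Over all compared windows the shares at 5 min were 0.930% higher and 1.79% lower, and at 30 min 0.452% higher and 0.635% lower. A count of 0 among 81 windows is near these shares. In CDK2 at 5 against 0 min, 1 window was higher, in PGR, and 14 were lower, of which 11 were in ESR1, 2 in NR3C1 and 1 in PGR. The shares of all windows were 6.22% higher and 16.2% lower, and in ESR1 the lower windows made up 22.9%. At 1.5-fold 13 windows were higher and 21 lower, and the shares of all windows at that limit were not determined.

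In CDK2 at 30 against 0 min 2 windows were higher, 1 in PGR and 1 in ESR1, and 16 were lower, of which 11 were in ESR1, 5 in NR3C1 and 0 in PGR. The shares of all windows were 5.50% higher and 11.6% lower. Lower windows made up 22.9% of the 48 windows of ESR1 and 5 of the 20 of NR3C1. The median window ratio was 0.875 in ESR1, 0.851 in NR3C1 and 0.852 in PGR, against 0.962 in all windows. At 5 min it was 0.816, 1.16 and 1.26 in ESR1, NR3C1 and PGR, against 0.955 in all windows.

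Between the antibodies, 0 windows were higher and 1 was lower for CDK2 than for PARP1 at 0 min, with 0.510% and 0.824% of all windows. The lower one was 100940001 to 100950000 in PGR, named above. At 5 min 5 were higher, of which 4 were in PGR, and 16 lower, of which 13 were in ESR1, with 8.03% and 17.1% of all windows. At 30 min 1 was higher and 12 were lower, of which 10 were in ESR1, with 3.87% and 10.4% of all windows. ESR1 held lower windows for CDK2 at a share of 27.1% at 5 min and 20.8% at 30 min. Its windows were also the least deeply read of the 3 genes, and the part of depth in this share was not tested.

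Each gene was cut into 3 parts of near equal length in the direction of transcription to ask where the reads lay. The stretch range holds the middle 90% of stretches, so some parts outside it are usual. In PGR, PARP1 at 0 min was highest in the 5′ part, which has 5 windows. There the ratio to the flank mean was 1.34, 0.943 and 1.15 at 0, 5 and 30 min, with the 0 min value above the stretch range of 0.780 to 1.25 for this length. Its 5 windows had 1.18, 1.24, 1.26, 1.75 and 1.26 in PARP1 at 0 min, in the direction of transcription. The highest of them was 100980001 to 100990000, named above. The middle part had 1.06, 0.951 and 1.06 and the 3′ part 1.16, 1.07 and 1.15. The difference in PARP1 between 5 and 0 min was thus largest in the 5′ part of PGR. CDK2 at 5 min was highest in the 3′ part of PGR, with 1.08, 1.80 and 1.09 at 0, 5 and 30 min, the 5 min value being above the stretch range of 0.544 to 1.55. The next 5 windows downstream, in the flank, had 1.73, 1.09, 0.748, 1.76 and 2.00 in CDK2 at 5 min. High values were thus not confined to the gene's windows. The 5′ part had 1.16, 1.14 and 1.15 in CDK2 at 0, 5 and 30 min.

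In ESR1 the lower CDK2 reads after hormone lay towards the 3′ end. The 3′ part, of 16 windows, had 1.09, 0.758 and 0.724 in CDK2 at 0, 5 and 30 min. The 5 min value was inside its stretch range of 0.713 to 1.34, and the 30 min value was just below its range of 0.740 to 1.31. As for the windows past 2-fold, the counts of this part follow. Among its 16 windows, the 3′ part held 6 of the 11 lower windows at 5 min and 8 of the 11 at 30 min. Of all compared windows, 16.2% were lower at 5 min and 11.6% at 30 min. The 5′ part had 0.977, 1.08 and 1.08 and the middle part 1.05, 0.918 and 1.11. PARP1 in the 3′ part was 1.05, 1.17 and 1.07, so the lower values there were in CDK2. SYNE1, the gene of a nuclear envelope protein, overlaps ESR1 in RefSeq, and reads at the overlap belong to both.

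In NR3C1 CDK2 at 30 min was lowest in the middle part, with 0.970, 1.15 and 0.691 at 0, 5 and 30 min, inside the stretch range of 0.672 to 1.38 at 30 min. The 3′ part had 1.08, 1.44 and 0.839 and the 5′ part 1.08, 1.13 and 0.986. PARP1 lay between 0.838 and 1.04 in all parts and times, and all of its values were inside their stretch ranges. PGR-AS1, an antisense gene, overlaps the PGR gene in RefSeq, so reads at the overlap belong to both.

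**Figure D4:**
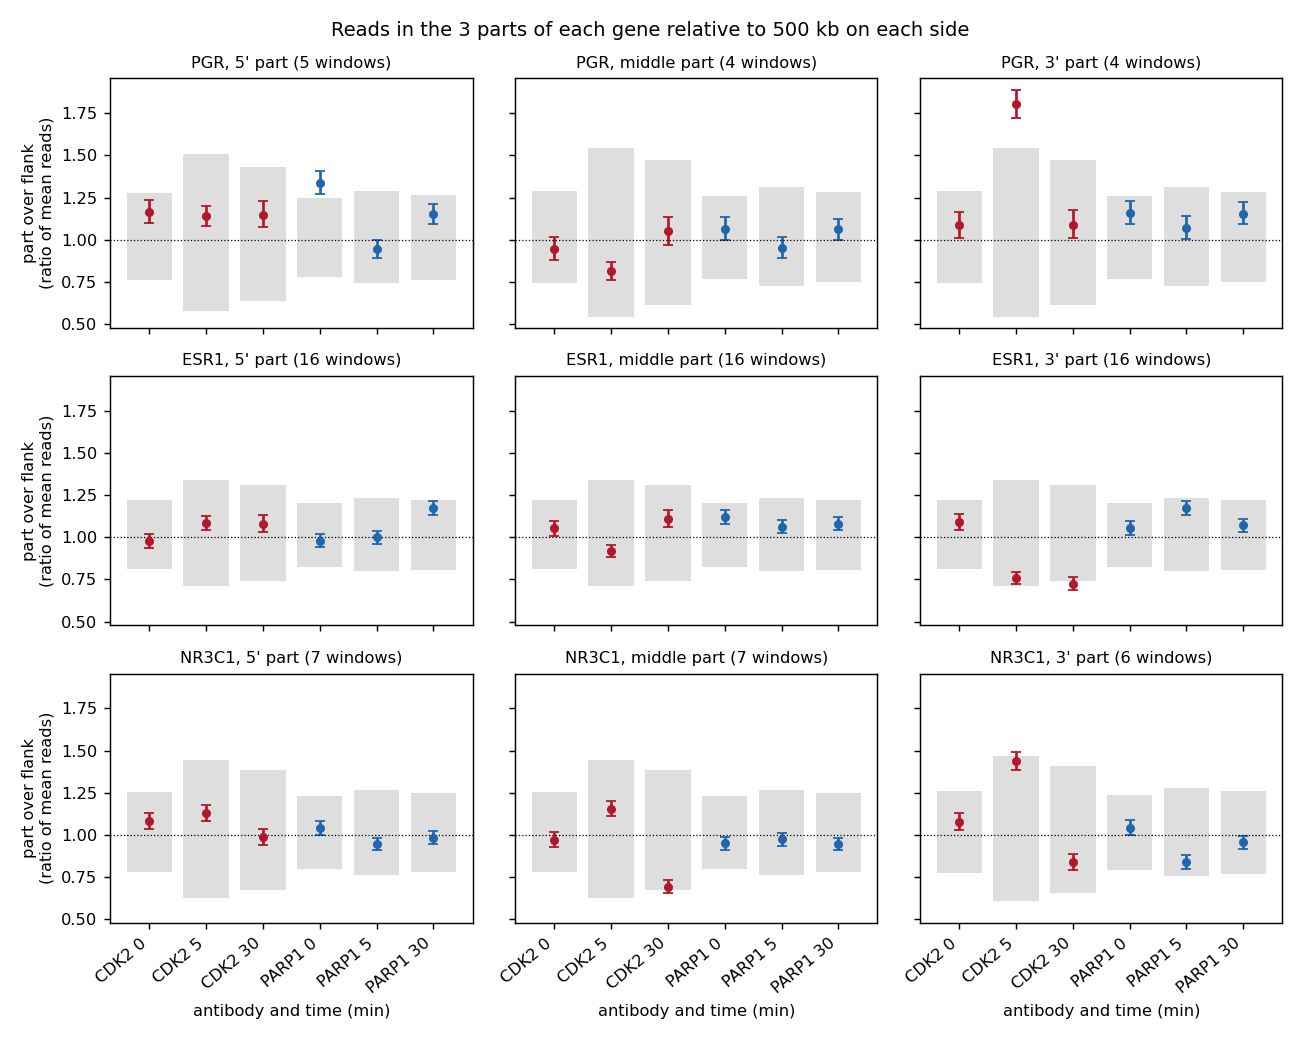
Mean reads per window in the 5′, middle and 3′ part of each gene over the flank mean (vertical axis) for the 6 libraries, with 95% counting intervals, CDK2 in red and PARP1 in blue. Grey boxes are the range of the middle 90% of stretches with as many windows. Outside lie 3 of the 54 points, namely PARP1 at 0 min in the 5′ part of PGR (1.34), CDK2 at 5 min in its 3′ part (1.80) and CDK2 at 30 min in the 3′ part of ESR1 (0.724). Having 3 of 54 outside is no more than a range of the middle 90% leaves out by definition.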

How the data were processed

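ChIP-seq reads were counted in the 6 libraries of T47D-MTVL cells described above. The deposited values are read counts in 10 kb windows, whole numbers without normalization. Alignment with Bowtie 1.0.0 to hg19 (GRCh37) is named in the submitters' processing notes. How duplicates and reads with several matches were handled, and which counting tool was used, is not stated there. An input library was not analysed here. The members, lists and limits were chosen with earlier results of these data known.

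Counts were scaled by library totals. Intervals of ratios between 2 libraries are exact (Clopper-Pearson) at 95%, those of sums are exact Poisson, and those of gene over flank and of its change are normal intervals of the log ratio. PCR copies are not independent molecules, so intervals cover counting error only. Stretches were consecutive, with a mean of at least 10 reads per window in every library for stretch and flank. Named windows were the one of highest mean level per gene and, per comparison with 0 min, at most 2 higher and 2 lower windows past 2-fold whose interval bound lay farthest from 1. The PGR window 100980001 to 100990000 was named outside this rule, as the highest in PARP1 at 0 min. The calculation was tested on simulated counts. Promoters came from RefSeq (GRCh38.p14), and other receptors were not analysed here because no hg19 annotation was at hand. Alternatives were TMM (edgeR 4.0.16) and median-of-ratios (DESeq2 1.42.0) factors, used for scaling only, chromosome totals, other flanks, ends, fold limits and count minimums, and medians. Python 3.11.15, numpy 2.4.6, scipy 1.17.1, pandas 2.3.3, matplotlib 3.10.9 and R 4.3.3 were used.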

Additional observations from a re-analysis of the deposited data

Results flagged for a closer look

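The change of gene over flank of NR3C1 in CDK2 lay above 1 at 5 against 0 min, with 1.18 (1.14 to 1.23), and below 1 at 30 against 0 min, with 0.806 (0.771 to 0.841). It drew attention because the counting intervals of both values lie on opposite sides of 1. The difference was not tested, since each time had 1 library and both values share the 0 min library. The stretch ranges, 0.789 to 1.24 and 0.8 to 1.24, hold both values, while the direct comparison of 30 against 5 min, 0.681 (0.654 to 0.710), lay below its stretch range of 0.743 to 1.35. After scaling to totals, 5 and 30 against 0 min were 1.06 and 0.861 in the gene and 0.896 and 1.07 in its flank. Against the upstream side of the flank alone, the changes of gene over flank at 5 and 30 against 0 min were 1.18 and 0.927. No other gene and antibody showed this pattern.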

How the results depend on the processing

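No change past its limit turned direction. Removal of the top windows moved none of the 27 changes of gene over flank beyond the counting interval and 1 of the 18 gene-over-flank ratios (PGR in CDK2 at 5 min, 1.19 in place of 1.24). Count minimums and TMM or DESeq2 scaling left all 14 window counts within 1.5 times. Of the 18 gene-over-flank ratios, 13 moved with a 1000 kb flank, 10 with medians, 8 with 250 kb, 8 with either side of the flank alone and 5 with trimmed ends. Among them ESR1 in CDK2 at 5 min had 1.03 with medians, in place of 0.92. The changes and counts below moved too, and the cause was not tested. Scaled by library totals, CDK2 at 5 against 0 min and CDK2 against PARP1 at 5 min were 0.889 and 0.861 for ESR1. For NR3C1 they were 1.06 and 1.14. Under TMM factors these depth-scaled ratios were 0.929 and 0.894 for ESR1, and 1.11 and 1.19 for NR3C1. Under DESeq2 factors the same were 0.932, 0.898, 1.11 and 1.19. DESeq2 factors also gave CDK2 at 30 against 0 min 0.962 in place of 0.924 (ESR1) and 0.897 in place of 0.861 (NR3C1). For CDK2 against PARP1 at 30 min they gave 0.914 in place of 0.878 (ESR1) and 0.929 in place of 0.892 (NR3C1). Scaling on chromosome totals gave NR3C1 0.854 in place of 0.813 (CDK2 at 30 against 5 min). It also gave NR3C1 1.10 in place of 1.14 (CDK2 against PARP1 at 5 min).

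For the change of gene over flank, CDK2 comparisons of 5 against 0, 30 against 0 and 30 against 5 min are written 5/0, 30/0 and 30/5. A flank of 250 kb gave ESR1 0.941 (CDK2 5/0), 0.907 and 0.925 (CDK2 against PARP1 at 5 and 30 min), and NR3C1 1.11 (5/0), 0.763 (30/0) and 1.28 (CDK2 against PARP1 at 5 min). A flank of 1000 kb gave ESR1 1.11 (30/5) and 0.816 (CDK2 against PARP1 at 5 min), and NR3C1 1.12 (5/0), 0.733 (30/5) and 1.28. With 1 window less at each end, PGR had 1.09 (5/0), 1.09 (30/0), 0.998 (30/5) and 1.12 (CDK2 against PARP1 at 5 min).

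With medians PGR had 1.08 (CDK2 5/0), 0.961 (30/0) and 0.893 (PARP1 30/0). ESR1 had 1.05 (CDK2 5/0), 0.86 (30/5), 1.07 and 1.10 (PARP1 5/0 and 30/0), and 0.952 and 0.792 (CDK2 against PARP1 at 5 and 30 min). NR3C1 had 1.27 (CDK2 5/0), 0.897 (30/0), 0.845 and 1.12 (PARP1 5/0 and 30/5), and 1.52 and 0.964 (CDK2 against PARP1 at 5 and 30 min).

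Leaving out each gene window in turn, chosen after seeing the data, gave extremes in PGR of 1.23 (CDK2 5/0), 0.955 (30/0), 0.826 to 0.944 (30/5), 0.992 (PARP1 30/0) and 1.17 to 1.36 (CDK2 against PARP1 at 5 min). ESR1 reached 0.891 (CDK2 30/0) and 0.840 (CDK2 against PARP1 at 30 min), and NR3C1 0.649 to 0.713 (CDK2 30/5), 1.39 and 0.837 (CDK2 against PARP1 at 5 and 30 min). Either side of the flank alone, also chosen after seeing the data, is given as upstream and then downstream. PGR had 0.836 and 0.937 (CDK2 30/5), and 0.911 and 1.05 (CDK2 against PARP1 at 30 min). ESR1 had 0.872 and 0.999 (CDK2 30/0), 0.949 and 1.17 (30/5), 0.916 and 0.798, and 0.837 and 0.920 (CDK2 against PARP1 at 5 and 30 min). NR3C1 had 0.927 and 0.706 (CDK2 30/0), 0.786 and 0.595 (30/5), 1.26 and 1.41, and 0.955 and 0.803 (CDK2 against PARP1 at 5 and 30 min).

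Of the 5 changes past 1.2, trimmed ends lost 2 and gained 0. A 1000 kb flank, medians, the downstream side alone, and the highest and the lowest values with 1 window left out each lost 1 and gained 2, the upstream side alone lost 1 and gained 0, and a 250 kb flank lost 0 and gained 0.

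Windows past 1.5-fold numbered 13 higher and 21 lower (CDK2 5/0), 8 higher and 25 lower (CDK2 30/0), 1 higher and 2 lower (PARP1 5/0) and 3 each way (PARP1 30/0). For CDK2 against PARP1 the time of 0 min had 4 higher and 2 lower, that of 5 min 17 higher with 21 lower, and that of 30 min 5 higher with 23 lower. Past 3-fold there were 8 lower (CDK2 5/0), 1 higher and 4 lower (CDK2 30/0), 10 lower with 1 higher (CDK2 against PARP1 at 5 min), and 3 lower with 0 higher at 30 min. The shares of all windows past 1.5-fold and 3-fold were not determined, so these counts have no reference. No paired analysis was possible because each antibody and time had 1 library. Depth limits the thinly read windows, of which ESR1 had 4 under 20 reads in CDK2 at 5 min and 2 at 30 min. Having 1 library per group leaves the spread between cultures unknown.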
